A study of Mus musculus with 2 samples.

Results

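The stathmins are a family of 4 genes, Stmn1, Stmn2, Stmn3 and Stmn4, and all 4 were among the 43346 genes measured in the midbrain of mouse embryos at 13.5 days. They were found by matching the Ensembl identifiers of the gene tables, without version, to these symbols in the GENCODE mouse annotation, and their 19 annotated transcripts were taken by the same identifiers. The tissue came from strain B6NCrl with male and female embryos pooled, and the labels name no treatment. Total RNA over 200 nt was sequenced in 2 libraries, which are labelled as biological replicates 2 and 1 of 1 group and come from separate biosamples, with 10 ng of RNA for each. The series has no other tissue, age or genotype, so the genes are compared with each other, with genes of their pathway and between the replicates.

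Stathmins are small proteins that bind alpha- and beta-tubulin, hold it away from microtubule ends and so favour microtubule shortening. Phosphorylation weakens this binding. Stmn1 is a soluble protein of the cytosol, known from dividing cells and from young neurons. Stmn2 (also called SCG10), Stmn3 (SCLIP) and Stmn4 (RB3) are known mainly from neurons, where an added amino-terminal stretch that carries palmitate on cysteines anchors them to Golgi and vesicle membranes and takes them to growth cones.

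The start of each coding sequence is shown because it separates the cytosolic member from the membrane-bound ones. These are the first 90 coding bases of the leading transcript of each gene, read from the GENCODE M21 transcripts of GRCm38, with in-frame cysteine codons (TGC or TGT) in capitals.
Stmn1: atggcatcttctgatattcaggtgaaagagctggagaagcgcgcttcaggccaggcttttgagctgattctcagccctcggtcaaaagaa
Stmn2: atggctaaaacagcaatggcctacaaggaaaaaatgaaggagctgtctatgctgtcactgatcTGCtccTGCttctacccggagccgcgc
Stmn3: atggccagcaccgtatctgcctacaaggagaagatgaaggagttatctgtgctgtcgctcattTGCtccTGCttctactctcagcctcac
Stmn4: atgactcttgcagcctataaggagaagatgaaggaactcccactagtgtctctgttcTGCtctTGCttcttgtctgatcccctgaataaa

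Stmn1 had 0 cysteine codons in these 30 codons and 0 in its whole coding sequence of 149 codons. Stmn2 and Stmn3 each had cysteine codons 22 and 24, and Stmn4 had them at 20 and 22, counted from the start codon. In all 3 the pair was written as TGC, a serine codon and TGC. Stmn4 had further cysteine codons at 45 and 58. The coding sequences held 179 codons in Stmn2, 180 in Stmn3 and 189 in the leading transcript of Stmn4.

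The exon layout followed the same division. An internal coding exon of 192 nt occurred in all 4 leading transcripts, and a coding exon of 96 nt occurred in Stmn2, Stmn3 and Stmn4 but had no counterpart of that length in Stmn1. Nucleotide identity over the aligned coding bases lay between 69.1% (Stmn1 with Stmn3) and 73.6% (Stmn2 with Stmn3) in the 6 pairs. No stretch of 31 bases of the leading Stmn2, Stmn3 or Stmn4 transcript occurred in an annotated transcript of a gene outside the family.

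Depth did not limit the family. The libraries held 41915240 expected reads in replicate 2 and 32151659 in replicate 1, with spike-in RNA at 4.06% and 2.22% of them. The 4 stathmins took 218499 of these reads in replicate 2 and 182632 in replicate 1. Of all TPM, spike-in RNA took 9.39% in replicate 2 and 5.36% in replicate 1, so the TPM of genes summed to 906069 and 946373. Markers were present for midbrain (4 of 4 genes at 1 TPM or more in both libraries), neurons (8 of 8), progenitors (6 of 6) and dividing cells (6 of 6). Of all genes 34.3% passed this level. Among markers of other cells in the tissue, that level was reached by 4 of 4 for microglia, 4 of 4 for meninges, 4 of 4 for red blood cells, 4 of 4 for endothelium, 3 of 3 for pericytes, 3 of 4 for the oligodendrocyte lineage and 2 of 4 for astrocytes. The astrocyte markers detected were Slc1a3 (66.71 TPM in replicate 2 and 62.49 TPM in replicate 1) and Aldh1l1 (24.85 and 22.76 TPM). Of the other astrocyte markers, Gfap was listed at 0.01 TPM in replicate 2 and 0 TPM in replicate 1, and Aqp4 at 0.80 and 0.54 TPM. Summed red blood cell markers reached 10082 TPM in replicate 2 and 9794 TPM in replicate 1. In such bulk tissue fewer cells of a type and less RNA per cell cannot be told apart.

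Stmn1, the cytosolic stathmin, was the most abundant member by far. It lies on chromosome 4 (GRCm38, chr4:134468320-134473843, plus strand). It stood at 5919 TPM in replicate 2 and 6659.7 TPM in replicate 1 (mean 6289.5 ± 524, SD, n = 2), where TPM is a level scaled for transcript length and for the library's total. It ranked 8th of 14878 detected genes (TPM of at least 1 in both libraries, passed by 34.3% of all genes) in each library. Among 12929 detected protein-coding genes it ranked 4th by mean TPM.

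Stmn3, a membrane-bound stathmin, was the next in level. It lies on the minus strand of chromosome 2 (chr2:181306459-181314500) and stood at 779 TPM in replicate 2 and 853 TPM in replicate 1 (mean 816 ± 52.3, SD, n = 2). Its mean ranked 115th among detected genes.

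Stmn2, another membrane-bound stathmin, stood close to Stmn3. It spans 52247 bases of chromosome 3 (chr3:8509360-8561606, plus strand), the longest locus of the family. Its level was 696 TPM in replicate 2 and 756 TPM in replicate 1 (mean 726 ± 42.9, SD, n = 2), and its mean ranked 133rd. The lower Stmn3 value, in replicate 2, lay just above the higher Stmn2 value, in replicate 1.

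Stmn4, also membrane-bound, was the lowest of the 4 and still ranked 435th, within the top 2.92% of detected genes. It lies on chromosome 14 (chr14:66344296-66361680, plus strand). It stood at 304 TPM in replicate 2 and 337.5 TPM in replicate 1 (mean 321 ± 23.5, SD, n = 2).

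**Figure D1:**
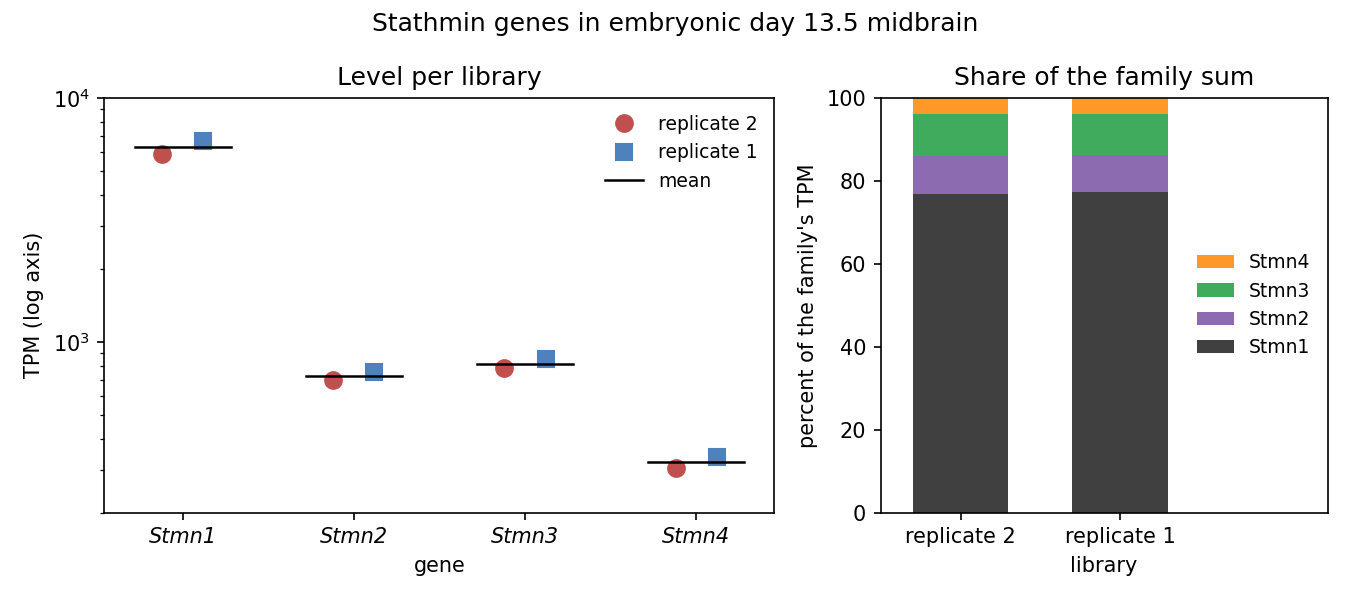
Left, TPM of each stathmin gene on a log axis in replicate 2 (circles) and replicate 1 (squares), with the mean as a bar; right, percent of the family's summed TPM held by each gene in each library. Stmn1 stands at 5919 and 6659.7 TPM, above the other members, and fills most of each bar (76.9% and 77.4%).

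The division of the family's RNA was nearly the same in both libraries. The summed level was 7698 TPM in replicate 2 and 8607 TPM in replicate 1, which is 0.850% and 0.909% of the TPM of all genes. Stmn1 held 77.1% ± 0.345 of the sum (SD, n = 2 for each share), Stmn3 10.0% ± 0.147, Stmn2 8.91% ± 0.176 and Stmn4 3.94% ± 0.0222. The 3 membrane-bound members together stood at 1779 TPM in replicate 2 and 1947 TPM in replicate 1.

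Read numbers gave another order than levels, because the transcripts differ in length. Stmn2 took 35870 reads in replicate 2 and 29188 in replicate 1, more than Stmn3 with 21599 and 17729. The mean effective length of Stmn2 was 1929 nt in replicate 2, against 1037 nt for Stmn3, so Stmn3 came out higher per length. Stmn4 had 9590 and 7996 reads, with an effective length of 1179 nt in replicate 2.

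Differences between members were tested on their within-library ratios. For each member, the ratio of every detected gene to it was fitted with limma on the log2(TPM + 0.1) scale, two-sided, with Benjamini-Hochberg adjustment over all 14877 genes of that fit. Stmn1 lay 8.65-fold above Stmn2 (log2 3.11 ± 0.035, SD, n = 2; limma adjusted p = 8.92e-06), 7.70-fold above Stmn3 (log2 2.95 ± 0.028; limma adjusted p = 4.19e-06) and 19.6-fold above Stmn4 (log2 4.29 ± 0.015; limma adjusted p = 1.79e-07). Stmn3 lay 2.54-fold above Stmn4 (log2 1.35 ± 0.013; limma adjusted p = 2.31e-05), and Stmn2 2.26-fold above Stmn4 (log2 1.18 ± 0.020; limma adjusted p = 4.42e-05). Nearly every gene differed in level from a given stathmin by this test. The share was 100% to 3 digits against Stmn1 (14872 of 14877 genes), 99.7% against Stmn2 or Stmn3 and 98.7% against Stmn4. A passed test thus only states that 2 estimated levels lie apart. An error that both libraries share, such as in a gene's effective length, does not enter the test. Genes called higher made up 0.0336% against Stmn1, 0.719% against Stmn2, 0.618% against Stmn3 and 2.35% against Stmn4.

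Stmn3 and Stmn2, neighbours in the order, were not separated by the test. Stmn3 was 1.12-fold higher, with log2 ratios of 0.16 in replicate 2 and 0.17 in replicate 1 (limma adjusted p = 0.0766), and the 95% interval of the fold ran from 0.98 to 1.29. When the fit was limited to genes of at least 5 TPM the same ratio had an adjusted p of 0.044 by limma, so the call rests on which genes share the spread.

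The replicates were close for all 4 members. Expected counts were scaled by TMM and taken as replicate 2 over replicate 1, with exact (Clopper-Pearson) 95% intervals that cover counting error only, since reads with no molecular identifier may be copies of 1 molecule. Stmn1 had a log2 ratio of -0.12 (interval -0.13 to -0.11), Stmn4 -0.11 (-0.15 to -0.06), Stmn3 -0.08 (-0.11 to -0.06) and Stmn2 -0.07 (-0.09 to -0.05). All 4 were thus slightly lower in replicate 2 than in replicate 1, with intervals that stayed negative. The intervals take each read as a separate count and the scaling as fixed, so they may be too narrow. A single library per replicate gives no test of this difference.

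These ratios were ordinary among all genes. Over the 14366 genes that averaged 50 or more counts, the median absolute log2 ratio was 0.10, and 49.1% of ratios were below 0. None (0) of the 4 stathmins reached a 2-fold difference, where 0.724% of all genes did (0.508% higher in replicate 2 and 0.216% higher in replicate 1). The 4 ratios lay between the 18.5th percentile (Stmn1) and the 28.8th percentile (Stmn2) of all ratios. Markers of neurons summed to 3224 TPM in replicate 2 and 3503 TPM in replicate 1, with a median log2 ratio of -0.051 and 6 of 8 below 0. Progenitor markers had a median of 0.0021 with 3 of 6 below 0, and dividing cell markers -0.039 with 3 of 6 below 0. Midbrain markers had a median of 0.32 with 0 of 4 below 0. Meningeal markers summed to 304 TPM in replicate 2 and 245 TPM in replicate 1, with a median of 0.39 and 0 of 4 below 0. Medians above 0 also occurred for microglia (0.15, 1 of 4 below 0), endothelium (0.14, 0 of 4) and red blood cells (0.080, 0 of 4). The same held for astrocytes (0.11, 0 of 3 with enough counts) and pericytes (0.059, 1 of 3). The oligodendrocyte lineage had a median of -0.18 with 2 of 3 below 0. The part of these cell types in the stathmin ratios was not tested.

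**Figure D2:**
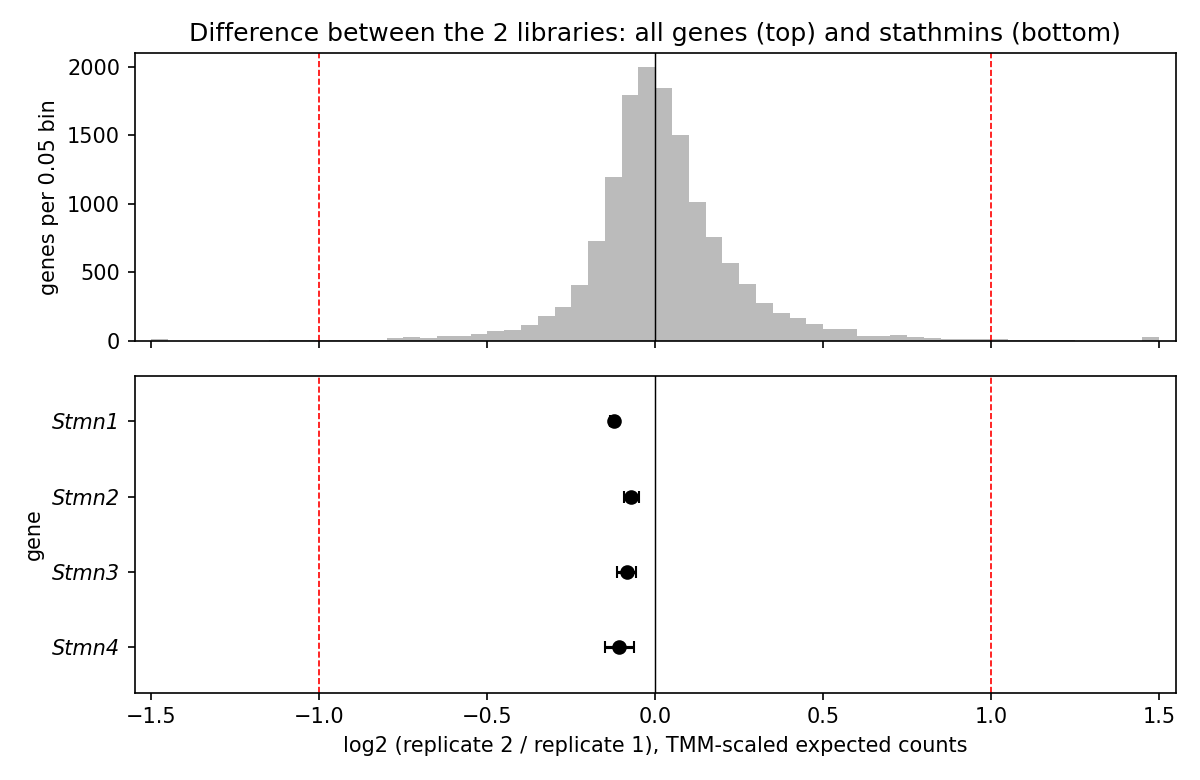
Top, number of genes by log2 ratio of replicate 2 over replicate 1 in bins of 0.05, for the 14366 genes averaging 50 or more counts, with ratios past 1.5 either way drawn in the end bins; bottom, the 4 stathmins with exact 95% counting intervals. Dashed lines mark 2-fold, and the stathmins lie between -0.12 and -0.07, inside the bulk of genes.

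Only the leading transcript of Stmn1 shared exact stretches of 31 bases with annotated transcripts of genes outside the family. Stretches shared among the stathmins themselves were not searched. Gm11223, a processed pseudogene of 450 nt on the minus strand of the same chromosome (chr4:69925630-69926079), held 26.1% of the 100-base stretches of the leading Stmn1 transcript. It was assigned 499 reads (53.2 TPM) in replicate 2 and 667 reads (94.8 TPM) in replicate 1, or 0.33% and 0.522% of the Stmn1 reads. The deposited SD of the estimated count was 28.9 reads in replicate 2 and 32.2 reads in replicate 1 for Stmn1, the same values as for Gm11223, and 0 for the other stathmins. How reads from the shared stretches divide between the genes was not tested. The miRNA gene Gm23634, which lies inside Stmn1, was listed at 0 TPM in both libraries.

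Transcript use was dominated by 1 form in 3 of the 4 genes. Shares are the deposited percentages of each gene's RNA per transcript, an estimate from short reads. Stmn1 gave 98.7% to Stmn1-201 in each library, and its other 4 transcripts shared 1.28% in replicate 2 and 1.26% in replicate 1. Stmn2 gave 95.5% to Stmn2-201 in replicate 2 and 95.4% in replicate 1. Stmn3 has 1 annotated transcript, so no share could differ.

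The minor Stmn2 transcripts are not annotated as coding. Stmn2-203, a processed transcript of 308 nt over the end of the gene, held 3.36% in replicate 2 and 3.47% in replicate 1. The retained-intron form Stmn2-202 held 1.08% and 1.04%, at 7.49 TPM in replicate 2 and 7.83 TPM in replicate 1. Stmn2-204, also a retained intron, held 0.04% and 0.07%. By expected reads Stmn2-203 stood below Stmn2-202, with 130 against 663 in replicate 2 and 110 against 520 in replicate 1. Their effective lengths were 209 nt and 3314 nt. Total RNA also holds unspliced RNA, and its part in these shares was not tested.

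Stmn4 stood apart in using 3 transcripts at 5% or more. Stmn4-201 held 65.6% in replicate 2 and 66.1% in replicate 1 (mean 65.8% ± 0.368, SD, n = 2). Stmn4-203 held 20.2% and 20.5% (mean 20.3% ± 0.177), and Stmn4-202 held 11.3% in each library. Their order was the same in both libraries. The SDs leave out the error of each library's estimate, for which the deposited intervals of TPM were wider. For Stmn4-203 they ran from 53.1 to 66.2 TPM in replicate 2 and from 57.8 to 74.5 TPM in replicate 1. For Stmn4-202 they ran from 27.2 to 39.5 TPM and from 29.1 to 42.9 TPM. The remaining 6 transcripts together held 2.95% in replicate 2 and 2.18% in replicate 1.

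Stmn4-203 and Stmn4-202 each add 1 internal exon to the layout of Stmn4-201, and these exons are shown because they change the coding sequence. The annotated forms also differ at both ends. The first exon has 108 nt in Stmn4-201, 37 nt in Stmn4-203 and 39 nt in Stmn4-202, and the last exon 606, 574 and 600 nt. The part of these ends in the estimated shares was not tested. The coding exon added in Stmn4-203 has 81 nt (chr14:66356269-66356349, plus strand). The exon added in Stmn4-202 has 53 nt (chr14:66358679-66358731), of which the first 21 nt, up to and with the stop codon, are shown. In-frame stop codons are in capitals.
Stmn4-203 exon: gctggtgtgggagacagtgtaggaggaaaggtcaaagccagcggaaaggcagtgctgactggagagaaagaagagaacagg
Stmn4-202 exon: gagccgcctgctgcgcggTGA

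The Stmn4-203 exon keeps the reading frame and holds 0 in-frame stop codons, so the coding sequence without its stop codon grows to 648 nt, against 567 nt in Stmn4-201. In Stmn4-202 the reading frame ends inside the added exon, which gives a coding sequence of 528 nt with another end, and leaves the last exon untranslated. Over all annotated forms, transcripts with the 81-nt exon held 21.0% of Stmn4 abundance in replicate 2 and 20.7% in replicate 1 (mean 20.9% ± 0.191, SD, n = 2), and those with the 53-nt exon held 11.7% and 11.3% (mean 11.5% ± 0.290). Stmn4-204, which joins both exons, was listed at 1.23 TPM in replicate 2 and 0 TPM in replicate 1. Its deposited intervals overlapped, from 0.108 to 4.89 TPM in replicate 2 and from 6.9e-05 to 3.48 TPM in replicate 1.

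**Figure D3:**
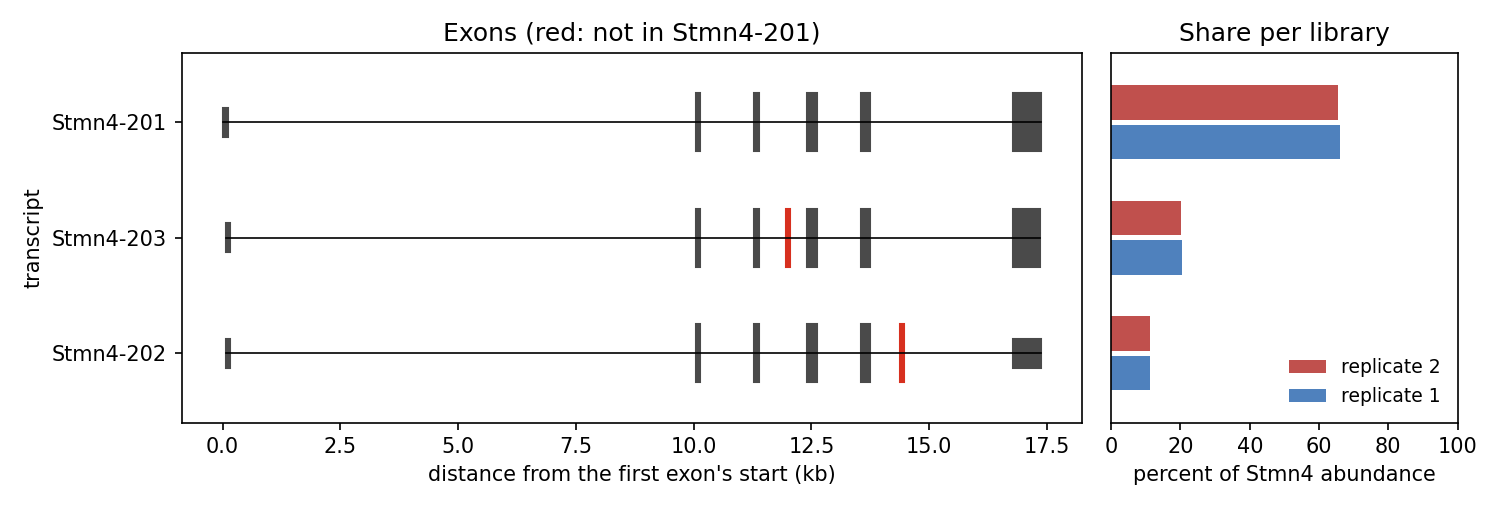
Left, exons of the 3 Stmn4 transcripts at 5% or more, by distance in kilobases from the start of the first exon, with taller boxes for exons that hold coding sequence, red for the exon absent from Stmn4-201, and the narrowest boxes widened to stay visible; right, percent of Stmn4 abundance in replicate 2 (upper bars) and replicate 1 (lower bars). Stmn4-201 holds 65.6% and 66.1%, Stmn4-203 20.2% and 20.5%, and Stmn4-202 11.3% in each.

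The tubulins, which stathmins bind, were the most abundant list of the pathway. All 10 were detected, where 34.3% of all genes were. Tuba1a stood at 13821 TPM in replicate 2 and 14372 TPM in replicate 1, Tubb3 at 1558 and 1679 TPM, and Tubb5 at 1433 and 1551 TPM. Tuba4a was lowest at 4.11 and 3.20 TPM. Stmn1 had a lower level than Tuba1a but a higher one than each of the other 9 tubulins. The list had a median of 856 TPM in replicate 2 and 865 TPM in replicate 1, beside 737 and 805 TPM for the stathmins.

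Kinases known to phosphorylate stathmins were present at lower levels. Of 15 genes 14 were detected, beside 34.3% of all genes. The highest was Prkaca, the catalytic subunit of protein kinase A, at 147 TPM in replicate 2 and 143 TPM in replicate 1. Cdk1, the mitotic kinase, stood at 141 TPM in replicate 2 and 121 TPM in replicate 1. Mapk13 was the lowest, at 0.61 and 0.39 TPM. The list had a median of 48.0 TPM in replicate 2 and 51.3 TPM in replicate 1.

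Genes that attach palmitate to proteins and genes of the Rest repressor were also measured. Of 3 palmitoyl transferases, Zdhhc3 was highest with 60.5 TPM in replicate 2 and 60.9 TPM in replicate 1, Zdhhc7 had 24.6 TPM in each, and Zdhhc15 had 4.64 and 4.61 TPM. Rest, which represses Stmn2 outside neurons, stood at 6.68 TPM in replicate 2 and 6.54 TPM in replicate 1. Among its partners, the deacetylases Hdac2 (344 and 364 TPM) and Hdac1 (108 and 113 TPM) and the scaffold Sin3a (26.2 and 24.3 TPM) were higher, and the corepressor Rcor1 was lowest at 4.69 and 5.30 TPM.

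RNA-binding proteins completed the pathway lists. Elavl4, a neuronal protein that binds and stabilizes messenger RNAs, stood at 249 TPM in replicate 2 and 260.0 TPM in replicate 1. Tardbp (TDP-43), known to protect STMN2 splicing in human neurons, stood at 219 and 237 TPM, Elavl2 at 99.6 and 110 TPM, and Elavl3 at 52.5 and 50.5 TPM. None (0) of the genes of these 5 lists that averaged 50 or more counts differed 2-fold between the replicates in either direction, where 0.724% of all genes did.

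**Figure D4:**
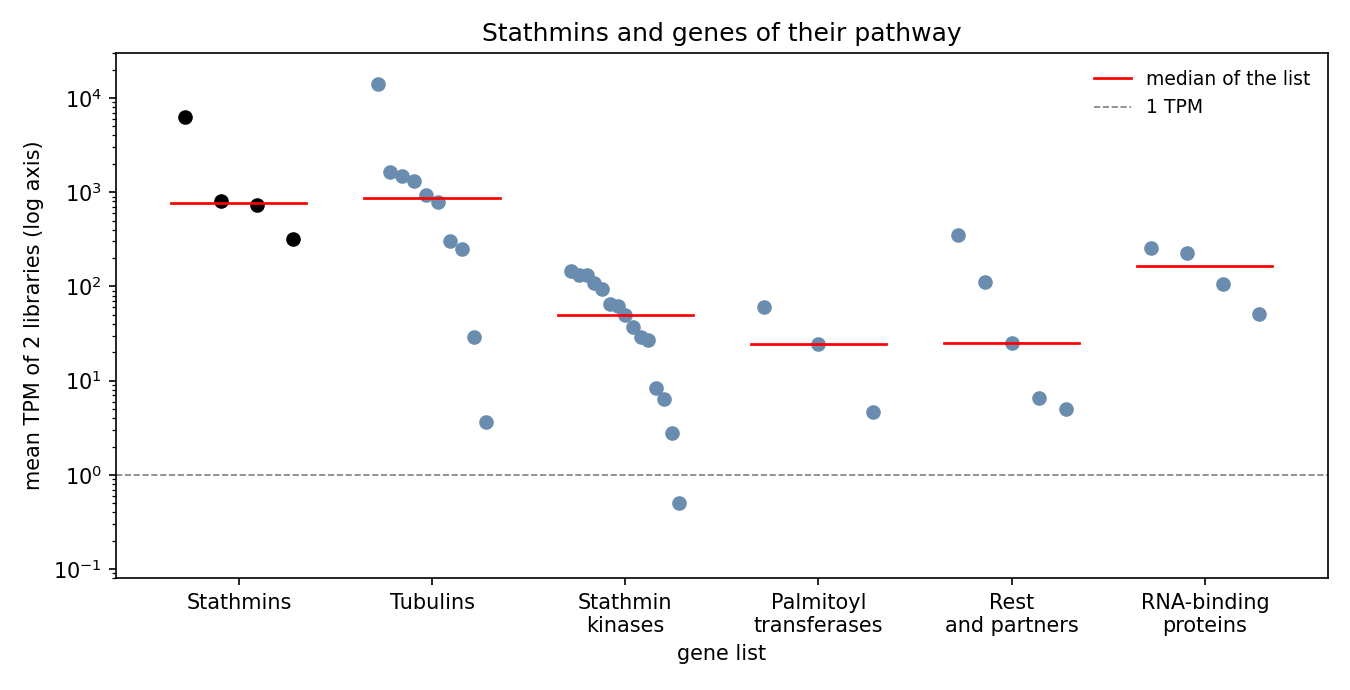
Mean TPM over both libraries on a log axis for each stathmin (black) and each gene of the 5 pathway lists (blue), sorted within a list, with the list's median in red and a dashed line at 1 TPM. Tuba1a lies above Stmn1, and Mapk13 alone lies under the line.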

How the data were processed

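Total RNA of 2 midbrain libraries was quantified by the authors against mm10 and GENCODE M4, as the deposited description of each library states. The deposited expected counts are estimated reads and need not be whole. The deposited TPM and FPKM values are scaled for length and depth, TPM with spike-ins included, per the file headers and column sums. The deposited percent values give transcript shares, and the deposited SD of the count, a score in reads, comes from the same tables. Column names match RSEM output. Aligner, tool versions and strand setting: not given in the sources used here.

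Symbols and positions came from GENCODE M21 (GRCm38), with 42462 of 43346 genes matched; 19 of 19 stathmin transcripts kept their deposited length. Rounded counts were scaled with TMM in edgeR 4.0.16 (R 4.3.3), with 0.5 added for ratios. The fit across genes used limma 3.58.1 with a threshold of 0.05, on genes of at least 1 TPM in both libraries. Coding sequences were aligned with Biopython 1.88. The labels give separate biosamples but do not say how embryos were assigned to them, so SDs measure the spread between these 2 libraries only. The limma p-values rest on that spread pooled over all genes of a fit, so they also depend on which genes are fitted. An exact sign-flip permutation test on 2 libraries cannot go below p = 0.5. Named genes were the members, transcripts at 5% or more, possible sharers of reads, the coding genes next in level, and the highest 3 and the lowest of each list. Gm11223, the minor Stmn2 transcripts, Stmn4-204, Rest and the astrocyte markers Gfap, Aqp4, Slc1a3 and Aldh1l1 were added after their values were seen. A gene that this rule names is not reported here. Members and lists were chosen with earlier results of these data known.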

Additional observations from a re-analysis of the deposited data

How the results depend on the processing

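Of 158 recomputed values 140 were kept and 0 reversed. Kept meant within the replicate spread for levels and shares, and within the counting interval for replicate ratios. For the alternative fits it meant the same side of the threshold, and for counts of genes within 1.5-fold of the main count. The tally does not measure robustness, because some outcomes were fixed. With 2 libraries, each single library lies within the spread around their mean, and shares from FPKM repeat those from TPM. The 5 called differences between members passed in every alternative fit, and Stmn3 over Stmn2 passed in 1 of 6 (log2 0.17 with genes of at least 5 TPM); over these 6 its limma adjusted p ran from 0.044 to 0.571. With TPM rescaled to gene entries only, Stmn2 stood at 783 TPM, Stmn3 at 881 TPM and Stmn4 at 346 TPM. With library totals Stmn1 had a log2 ratio between replicates of -0.11. With the ratio of TPM + 0.1 the values were -0.17 for Stmn1, -0.12 for Stmn2 and -0.13 for Stmn3, and the median of all genes was -0.04. Over all genes 104 passed 2-fold, 538 with a mean count minimum of 10, 4947 with any count above 0 and 475 by a 1.5-fold rule, with 0 stathmins in each. As shares of expected counts, which do not correct for length, Stmn1-201 held 99.2%, Stmn2-201 97.8%, Stmn4-201 67.1% and Stmn4-202 11.3%. With a minimum of 5 TPM, 2 midbrain, 1 oligodendrocyte lineage and 1 microglial marker were detected. Leaving out replicate 1 or replicate 2 gave the other library's values, with no test. No paired analysis was possible because the libraries form 1 group. Of the rare Stmn4 transcripts, Stmn4-209 was listed at 0 in both libraries. Stmn4-204 had 41.7 expected reads in replicate 2 and 0 in replicate 1, with deposited intervals of TPM that overlapped. The cause of this difference was not tested.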

Other observations

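With 2 libraries of 1 group there is no pattern across conditions to compare, so likeness was taken as the nearest mean TPM among detected protein-coding genes over both libraries. Stmn1 stood between the mitochondrial genes mt-Atp6 (6760 ± 587 TPM, SD, n = 2) and mt-Atp8 (5815 ± 1025 TPM). Stmn3 stood between Rps27rt (816 ± 26.0 TPM) and the ribosomal protein gene Rps9 (799 ± 35.3 TPM), and Stmn2 between Chchd2 (730 ± 40.7 TPM) and Tpt1 (726 ± 30.4 TPM). Stmn4 stood between Pea15a (322 ± 14.7 TPM) and Fis1 (321 ± 2.62 TPM). These neighbours differed from the stathmins by less than the spread between the libraries. Stmnd1, whose name marks a stathmin domain, was listed at 0 TPM in replicate 2 and 0.04 TPM in replicate 1, with 1 read in all.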
